A study of Mus musculus with 6 samples.

Results

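The 9 genes described here, Dntt, Flt3, Ly6d, Cd52, Il7r, Rag1, Rag2, Lsp1 and Mef2c, are early lymphoid priming genes. They are taken by name, as genes known from lymphoid-primed multipotent progenitors (LMPPs). All 9 were found among the 21851 named genes of the deposited tables. Their RNA was compared between 3 libraries of hematopoietic stem cells (HSCs) from irradiated mice and 3 from control mice. The control group came from bone marrow of wild-type mice with the agent given as control (Ctrl), and the other group from bone marrow of wild-type mice that received ionizing radiation (IR). Mice of both groups were matched for background and kept free of specific pathogens. The sort took cells that lacked lineage markers, Flt3 and CD48 and carried Sca-1, c-Kit and CD150. The sources used here do not state the radiation dose, the time after exposure, the age of the mice or how many went into a library. The titles number the libraries as replicates without saying that they came from separate mice, so the p-values reflect no more than the spread among these libraries, which may be technical.

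HSCs give rise to all blood lineages, and LMPPs are progenitors that have lost most megakaryocytic and erythroid potential and keep lymphoid and myeloid potential. Lymphoid priming is the low-level transcription of lymphoid genes in such cells before they commit to a lineage. It begins under factors such as Ikaros, E proteins, PU.1 and MEF2C, is maintained through the FLT3 receptor, and passes into IL-7-dependent growth and rearrangement of the antigen receptor genes by the RAG recombinase and terminal transferase.

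The sequences just upstream of 4 members are shown, those that encode the recombination enzymes and the FLT3 receptor. The window of Il7r, the other receptor gene, is not shown because 86 of its bases lie in exons of protein-coding genes. Each sequence shown is the run of 250 bases before the gene's RefSeq start (GRCm38.p6), written 5′ to 3′ on the strand of the gene. Capitals mark matches, on either strand, to 6 motifs: CAGGTG and CAGCTG (E-boxes of E proteins), GAGGAA (ETS core bound by PU.1), TGGGAA (Ikaros core), TGTGGT (RUNX core) and CTA and TAG with any 4 bases between them (MEF2 core).
Dntt, chr19:41029025-41029274, plus strand: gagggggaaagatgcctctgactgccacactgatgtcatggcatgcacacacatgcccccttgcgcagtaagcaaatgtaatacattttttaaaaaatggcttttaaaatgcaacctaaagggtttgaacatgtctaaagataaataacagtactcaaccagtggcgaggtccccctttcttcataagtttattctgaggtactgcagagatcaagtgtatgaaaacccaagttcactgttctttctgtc
Rag2, chr2:101624462-101624711, plus strand: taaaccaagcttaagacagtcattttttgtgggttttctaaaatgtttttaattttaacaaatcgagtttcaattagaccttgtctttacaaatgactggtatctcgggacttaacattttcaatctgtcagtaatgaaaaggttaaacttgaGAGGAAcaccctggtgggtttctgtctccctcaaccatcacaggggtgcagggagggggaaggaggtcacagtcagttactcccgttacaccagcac
Rag1, chr2:101649533-101649782, minus strand: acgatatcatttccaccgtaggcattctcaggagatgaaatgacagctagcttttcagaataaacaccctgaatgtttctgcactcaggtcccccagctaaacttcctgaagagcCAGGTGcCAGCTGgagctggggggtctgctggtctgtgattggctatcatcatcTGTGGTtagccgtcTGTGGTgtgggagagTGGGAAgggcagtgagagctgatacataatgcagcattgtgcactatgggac
Flt3, chr5:147400490-147400739, minus strand: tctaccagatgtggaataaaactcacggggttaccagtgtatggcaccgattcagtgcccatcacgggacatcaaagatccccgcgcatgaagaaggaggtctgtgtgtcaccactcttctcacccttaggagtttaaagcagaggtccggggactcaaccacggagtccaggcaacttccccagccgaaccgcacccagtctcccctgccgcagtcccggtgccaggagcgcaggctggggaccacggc

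None of the 6 motifs lay in the Dntt or Flt3 window, and Rag2 held 1 match, GAGGAA, starting 97 bases before the start. Rag1 held 5 matches that did not overlap: CAGGTG 135, CAGCTG 128, TGTGGT 81 and 67, and TGGGAA 52 bases before the start. Among 32841 windows of this length in the RefSeq table, CAGGTG occurred in 17.2%, CAGCTG in 13%, GAGGAA in 23.3%, TGGGAA in 21.6%, TGTGGT in 14% and the MEF2 core in 3.2%. Of the other members with a window, Mef2c held GAGGAA once in 2 of its 3 windows and no match in the other, and Il7r held none of the motifs, so GAGGAA, in Rag2 and Mef2c, was the motif found in more than 1 member. A match is a run of letters and was not tested as a binding site.

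The steps between low values in the tables correspond to about 14400000 to 16300000 fragments per library, and the ranges of the groups overlap. The unit, FPKM, scales fragments by transcript length and by library size, so levels can be compared between genes. Genes at 1 FPKM or more in at least 3 libraries were tested on log2(FPKM + 1) with limma, and a gene is said to rise or fall where its Benjamini-Hochberg adjusted p was under 0.05. Correlations across genes were 0.9982 to 0.9985 within groups and 0.9901 to 0.9904 between groups. Of 10281 genes tested, 54.7% were called, 28.9% lower and 25.8% higher in irradiated HSCs, and the members are read against these shares.

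Irradiated HSCs held less RNA of the lymphoid priming genes, by margins of 27.8% for Mef2c to 69.0% for Ly6d among the 8 members tested. All 8 fell and none rose, beside a background of 54.7% called either way and 28.9% called lower, and the irradiated libraries lay under all control libraries in 9 of 9 members, beside 32.5% of all genes tested. The 9 include Rag1, which did not pass the filter and so lies outside the genes behind the 32.5%. Rag2 and Il7r passed the filter on low values only through the control libraries, so their fall is partly set by the filter. The 6 members at 5 FPKM or more in at least 3 libraries all fell when the test was limited to genes at that level. The median log2 fold change of the 8 was -0.79, against -0.0072 for all genes tested. These are bulk samples, in which fewer lymphoid-primed cells and less lymphoid RNA per cell cannot be told apart.

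**Figure D1:**
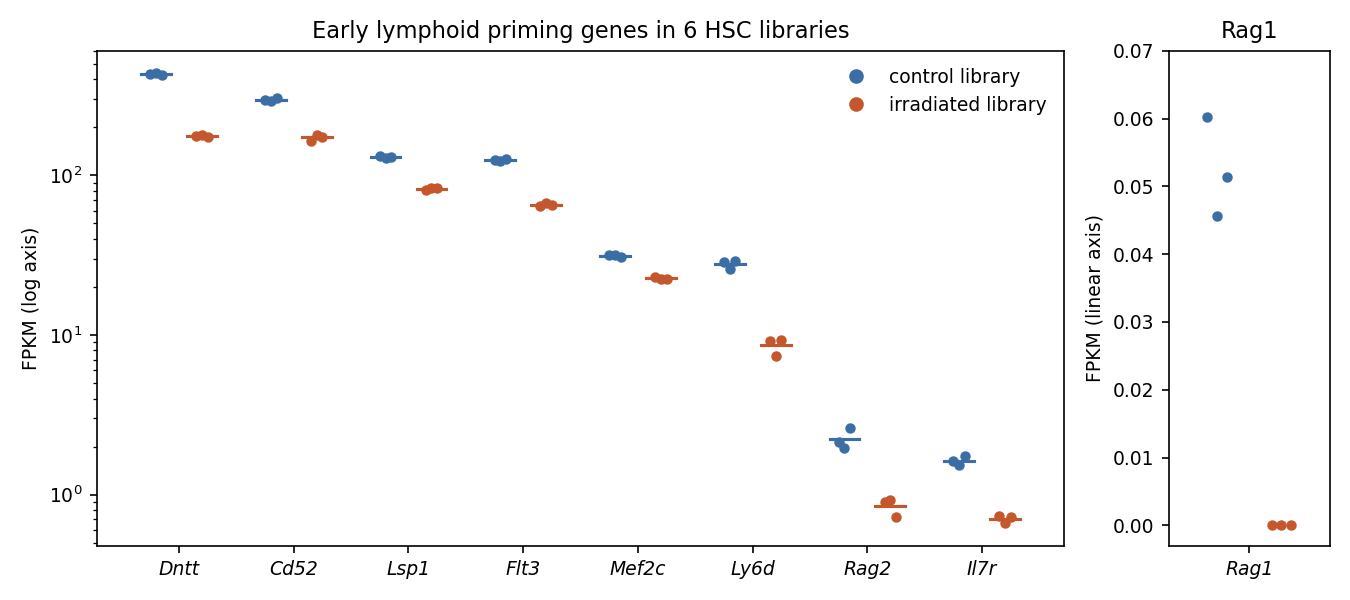
FPKM of the members in each library, on a log axis for 8 members and a linear axis for Rag1; points are libraries and, for the 8, horizontal bars are group means of 3 libraries. For every member the irradiated libraries sit below the control libraries, from Dntt at 424 to 437 against 174 to 179.6 FPKM down to Rag1, which is listed at 0 in the irradiated group.

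Among the genes of antigen receptor assembly, Dntt (chromosome 19, 41029275 to 41059525) was the most abundant member. It encodes terminal deoxynucleotidyl transferase (TdT), which adds untemplated nucleotides at the junctions of rearranged receptor genes. Dntt stood at 429, 437 and 424 FPKM in control replicates 1 to 3 and at 176, 179.6 and 174 FPKM in irradiated replicates 1 to 3. The groups were far apart and each was tight: the control mean was 429.9 ± 6.62 (SD, n = 3) and the irradiated mean 176.5 ± 2.97 (SD, n = 3). Its log2 fold change was -1.28 (SE 0.021, limma adjusted p = 1.55e-10), the rank 19 fall of 10281 genes. Even after this fall Dntt exceeded at least 94.7% of the tested genes in each irradiated library, against at least 98.5% in each control library.

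The recombinase subunits were much scarcer than Dntt. Rag2 (chromosome 2, 101624712 to 101632528), the accessory subunit that reads histone marks, stood at 2.14, 1.96 and 2.60 FPKM in controls and at 0.901, 0.926 and 0.728 FPKM in irradiated HSCs. All control libraries lay above all irradiated ones, with a fold of 2.63 between the means (2.24 ± 0.331 and 0.852 ± 0.107 FPKM), and the log2 fold change was -0.80 (SE 0.085, limma adjusted p = 3.28e-05). Rag1 (chromosome 2, 101638252 to 101649532), the catalytic subunit, stood at 0.0602, 0.0456 and 0.0514 FPKM in controls and was listed at 0 in all 3 irradiated libraries. With its single annotated transcript of 6608 bases these values correspond to about 6, 5 and 5 fragments, where 1 fragment is worth about 0.01 FPKM. Rag1 was too low to be tested with the other genes; an exact permutation test over the 6 libraries gave p = 0.1 (2-sided), the smallest that 3 against 3 libraries allow. No fold is given against a group at 0.

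Rag2 thus exceeded Rag1 by 35.6 to 50.7 times per length in the control libraries, although both subunits are needed for the recombinase. The gene B230118H07Rik, also named Iftap, runs through this locus on the strand opposite to Rag2, and in GENCODE M21 its exons cover 208 of 3424 exonic bases of Rag2 (6.08%) and 80 of 6608 of Rag1. It stood at 23.1 to 25.0 FPKM in controls and 20.9 to 21.6 FPKM in irradiated HSCs, above Rag2 in every library, with a log2 fold change of -0.18 (limma adjusted p = 2.70e-03). Whether strand was used in counting is not given in the sources used here, so reads of this gene and of Rag2 cannot be told apart with certainty and the Rag2 level is uncertain.

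Both cytokine receptors were lower in irradiated HSCs. Flt3 (chromosome 5, 147330741 to 147400489) encodes the receptor tyrosine kinase for FLT3 ligand, which supports lymphoid-primed progenitors. It stood at 125.7, 123.6 and 126.8 FPKM in controls and at 64.3, 67.2 and 65.5 FPKM in irradiated HSCs. The libraries of a group lay close together and the groups far apart (125.4 ± 1.57 and 65.7 ± 1.43 FPKM), and the log2 fold change was -0.92 (SE 0.026, limma adjusted p = 4.06e-09). The sort removed cells with FLT3 protein at the surface, so the RNA of this gene was measured in cells gated as negative for its product, where it still exceeded at least 92.2% of tested genes in controls and at least 84.4% in irradiated libraries.

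Il7r (chromosome 15, 9506159 to 9529941), the alpha chain of the receptor for IL-7, which drives the growth of committed lymphoid progenitors, stood at 1.61, 1.52 and 1.74 FPKM in controls. The irradiated libraries were at 0.737, 0.662 and 0.724 FPKM, below all controls. Its log2 fold change was -0.62 (SE 0.066, limma adjusted p = 3.38e-05). On the FPKM scale it was 2.30-fold lower, a larger margin than the 1.91-fold of Flt3; the added 1 FPKM shrinks the log2 value of so low a gene.

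Both small surface glycoproteins were lower too. Ly6d (chromosome 15, 74762056 to 74763567) encodes a lipid-anchored protein that marks lymphoid progenitors moving toward the B lineage. It stood at 28.6, 25.8 and 29.3 FPKM in controls, about 313 to 315 fragments per library. In irradiated HSCs it stood at 9.17, 7.44 and 9.37 FPKM, about 82 to 108 fragments. Ly6d had the largest fall of the 8 members tested, at 3.22-fold between the means, with a log2 fold change of -1.58 (SE 0.077, limma adjusted p = 2.12e-07), the rank 2 fall among all genes tested. With 5 FPKM added in place of 1, its change differed from that of Dntt by -0.009.

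Cd52 (chromosome 4, 134093538 to 134095073), a short lipid-anchored glycoprotein of lymphocytes and some other leukocytes, stood at 297, 292 and 305 FPKM in controls. The irradiated libraries were at 165, 179 and 175 FPKM. The spread within groups was small beside the gap between them (298 ± 6.69 and 173 ± 6.94 FPKM). The log2 fold change was -0.78 (SE 0.030, limma adjusted p = 4.83e-08).

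Lsp1 and Mef2c had the smallest falls on the FPKM scale among the 8 tested. Lsp1 (chromosome 7, 142458223 to 142494868), an actin-binding phosphoprotein of leukocytes, stood at 133, 129 and 129.6 FPKM in controls and at 80.6, 82.9 and 83.2 FPKM in irradiated HSCs. Its log2 fold change was -0.66 (SE 0.025, limma adjusted p = 3.84e-08). Mef2c (chromosome 13, 83504017 to 83667079), a MADS-box transcription factor that favours lymphoid over myeloid fate, stood at 31.9, 31.6 and 30.9 FPKM in controls and at 23.1, 22.5 and 22.5 FPKM in irradiated HSCs. The groups of Mef2c did not overlap and each was tight, and its log2 fold change of -0.45 (SE 0.032, limma adjusted p = 2.24e-06) was the smallest of the members. A change of this size or larger in the same direction was found in 4.78% of the tested genes, 491 in all.

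**Figure D2:**
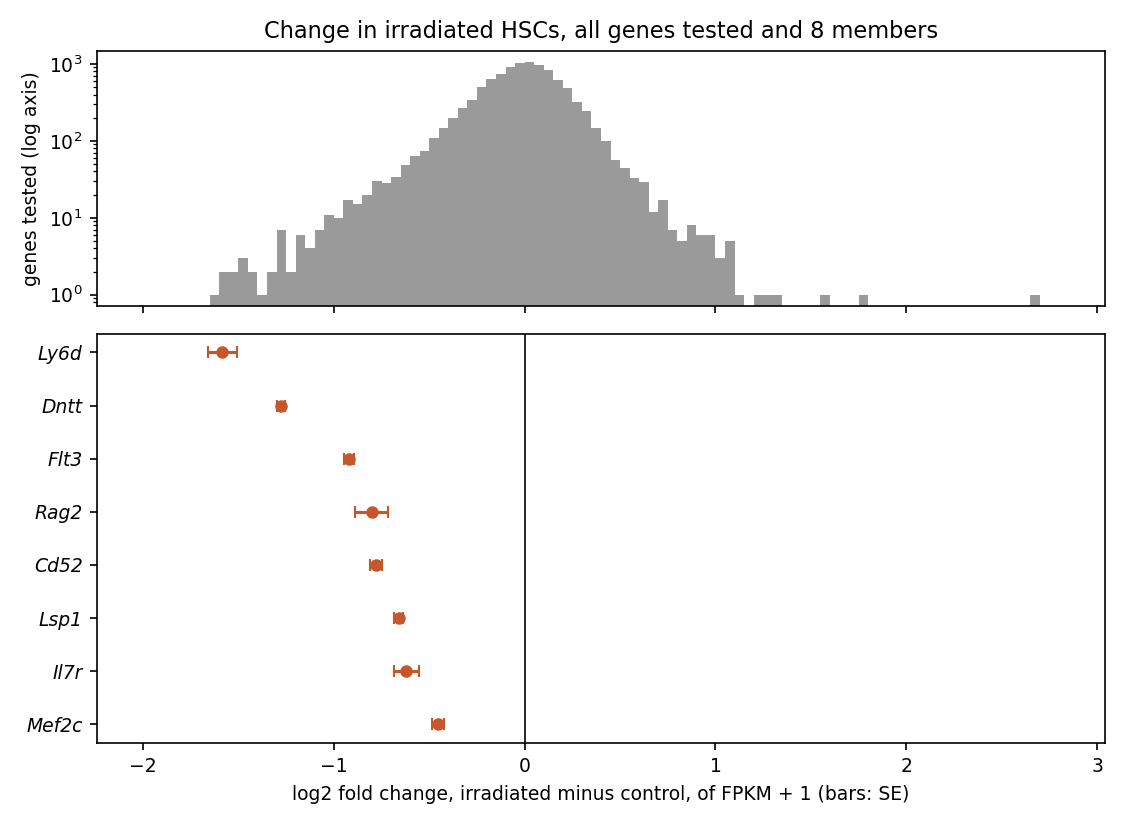
Log2 fold change on the log2(FPKM + 1) scale, irradiated minus control, for all 10281 genes tested (upper histogram, log axis for the number of genes) and for the 8 members tested (lower, points with SE). The members run from -1.58 for Ly6d to -0.45 for Mef2c, all in the left part of the distribution, whose median is -0.0072.

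The order of the members' mean levels was the same in both groups, but 2 pairs of neighbours in it overlapped in irradiated HSCs. It was Dntt, Cd52, Lsp1, Flt3, Mef2c, Ly6d, Rag2, Il7r and Rag1. In controls no neighbours in this order overlapped between libraries, the closest being Lsp1 at 1.02 to 1.06 times Flt3. In irradiated HSCs Dntt and Cd52 overlapped, and so did Rag2 and Il7r. Dntt stood at 1.39 to 1.498 times Cd52 in each control library and at 0.991 to 1.07 times in each irradiated library. Mef2c, which lay 1.13-fold above Ly6d in controls, lay 2.62-fold above it after irradiation.

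The size of the fall was compared between members that neighbour each other in the order of log2 fold change, with 7 pairs in all, by an exact permutation test of the difference within each library (2-sided, smallest possible p 0.1). The change of Ly6d minus that of Dntt was -0.30 (SE 0.13) on the log2(FPKM + 1) scale, and that of Dntt minus that of Flt3 was -0.36 (SE 0.027). For both pairs, and for Cd52 against Lsp1 and Il7r against Mef2c, the libraries of the groups did not overlap, but none passed the threshold, each with exact p = 0.1 and p = 0.175 after adjustment over the 7 pairs. In the other 3 pairs the groups overlapped: exact p was 0.2 for Flt3 against Rag2, 0.8 for Rag2 against Cd52 and 0.5 for Lsp1 against Il7r. With 0.1 FPKM added in place of 1, the log2 fold changes of Rag2 and Il7r became -1.29 and -1.09, beside -0.93 for Flt3, so the place of these 2 low genes in the order depends on the added value.

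The 9 members lie on 7 chromosomes, and Rag1 and Rag2 are neighbours separated by 5723 bases. The nearest protein-coding genes with an entry on each side, and the overlapping B230118H07Rik, gave 17 further genes. Of these 10 were tested, 8 fell, none rose and 2 were not called, and 7 were too low to test. Over all genes tested 28.9% were called lower and 25.8% higher. Traf6, the ubiquitin ligase gene beside Rag1, was not called, at 6.77 to 7.76 FPKM in controls and 7.44 to 7.66 FPKM in irradiated HSCs, and Cetn3 (a centrin), on one side of Mef2c, was not called either (log2 fold change -0.07), while Tmem161b on the other side had -0.26. Pan3, a deadenylase subunit beside Flt3, fell by 0.16 on the log2 scale, Ly6k beside Ly6d by 0.32, Ubxn11 beside Cd52 by 0.40, Capsl beside Il7r by 0.55 and the troponin gene Tnni2 beside Lsp1 by 0.61. Tnni2 passed the filter on low values only through the controls, so its call is partly set by the filter, and on the FPKM scale it was 2.65-fold lower, beside 1.59-fold for Lsp1. Opalin, Urad and Lrrc4c, beside Dntt, Flt3 and Rag2, were listed at 0 in all libraries. Of the others below the filter, Lynx1 beside Ly6d reached at most 0.386 FPKM, Spef2 beside Il7r 0.261, Tnnt3 beside Lsp1 0.153 and Aim1l beside Cd52 0.978. In each of them all irradiated libraries lay under all control libraries, beside 32.5% of all genes tested. That share covers only genes that passed the filter, which these did not, so the comparison is not a like one.

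Blnk, the neighbour of Dntt, begins 35053 bases from its start and is transcribed away from it (chromosome 19, 40928927 to 40994221). Blnk encodes the adaptor that links the B-cell receptor to downstream signalling. It stood at 5.55, 5.57 and 5.85 FPKM in controls and at 1.75, 1.74 and 1.53 FPKM in irradiated HSCs, with a log2 fold change of -1.32 (SE 0.058, limma adjusted p = 1.15e-07). Profiles of centred log2(FPKM + 1) over the 6 libraries were also compared, with members and predicted genes (Gm and Rik names) left out. Among the genes ranked, Blnk lay nearest to Dntt, with a Euclidean distance of 0.116. On the FPKM scale the pair was not in a fixed ratio: Dntt was 72.4 to 78.4 times Blnk in controls and 101 to 114 times Blnk in irradiated HSCs.

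After Blnk, the genes nearest to Dntt were Serpinf1 (pigment epithelium-derived factor) at 0.132, Irf7 (an interferon regulatory factor) at 0.137, Lgmn (the lysosomal protease legumain) at 0.141 and Wfdc17 at 0.145. The nearest to Flt3 were Ldhb (a lactate dehydrogenase subunit) at 0.039, Slpi (a secreted protease inhibitor) at 0.061, Klf11 (a Kruppel-like factor) at 0.062, Cmah at 0.085 and Itgam (the myeloid integrin CD11b) at 0.105. Both sets are therefore mixed, and 1 of these 10 genes, Blnk, stands on the lists of lymphoid genes used here. Among the members, the nearest to Dntt was Flt3 at 0.443, and the nearest to Flt3 was Cd52 at 0.181. These cannot be set against the distances above, which are the smallest out of far more genes than the members. With 6 libraries in 2 groups this distance mostly measures how similar the size of the fall is.

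**Figure D3:**
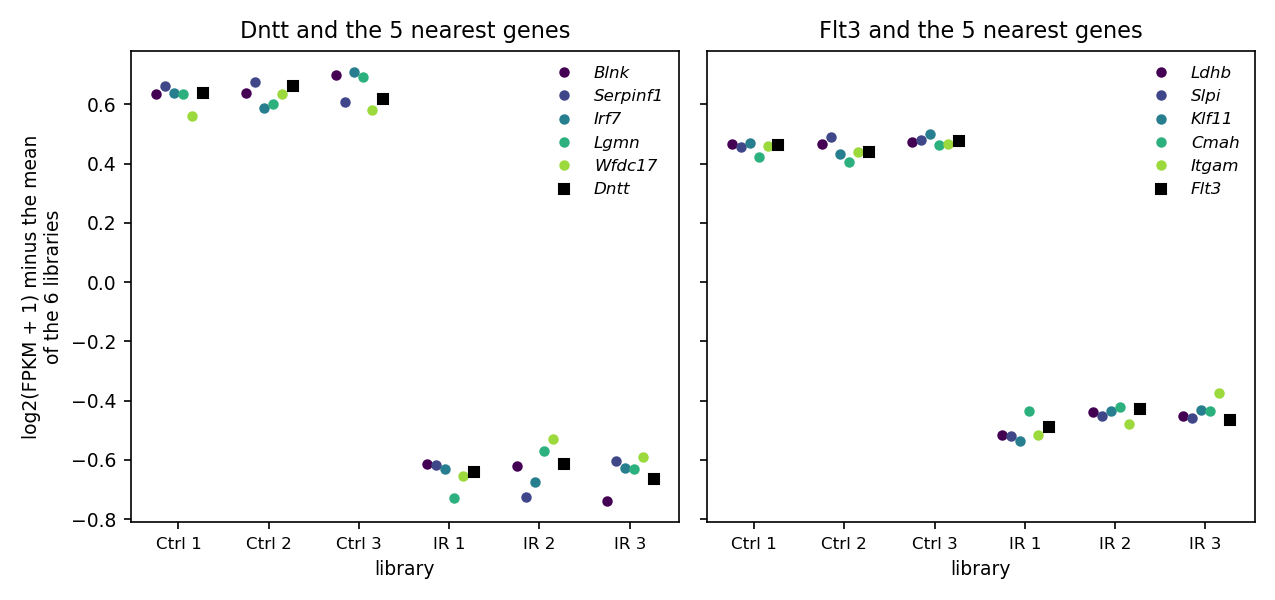
Centred log2(FPKM + 1) of Dntt (left) and Flt3 (right), black squares, with the 5 genes of nearest profile in each of the 6 libraries, coloured points. Members and predicted genes were left out of the ranking. All sets fall into a control level and an irradiated level, about 1.28 apart for Dntt and 0.92 apart for Flt3.

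Other genes known from LMPPs or common lymphoid progenitors (CLPs) were also lower. Of 13 listed genes 12 had an entry and 11 were tested, of which 10 fell and 1 rose, with a median log2 fold change of -0.61. All genes tested had a median of -0.0072, with 28.9% called lower and 25.8% called higher. The list was chosen with earlier results of these data known. Besides Blnk, the smallest p-values were those of Cd53, a tetraspanin of leukocytes, which fell from 251 ± 1.41 to 178 ± 2.20 FPKM (SD, n = 3, as for the values that follow), and Ltb, lymphotoxin beta, from 39.0 ± 2.47 to 16.8 ± 0.984 FPKM. Btla, an inhibitory receptor found on CLPs, fell from 5.61 ± 0.181 to 2.27 ± 0.279 FPKM. The riser, named after its value was seen, was Sla, an adaptor that dampens receptor signalling, which rose from 43.9 ± 0.847 to 51.8 ± 0.515 FPKM.

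Transcription factors of lymphoid specification, listed with Notch1, were split. Of 18 genes 15 were tested, 8 fell, 1 rose and 6 were not called, with a median of -0.20. Among all genes tested, 54.7% were called, 28.9% lower and 25.8% higher. Notch1, the receptor needed for T-lineage entry, fell from 2.97 ± 0.131 to 1.18 ± 0.0582 FPKM. Satb1, a chromatin organizer that promotes lymphoid potential, fell from 12.5 ± 0.476 to 7.71 ± 0.0879 FPKM and the E-protein gene Tcf4 from 7.93 ± 0.0387 to 4.96 ± 0.0663 FPKM. Spi1, which encodes PU.1, had a log2 fold change of -0.20 and Ikzf1, which encodes Ikaros, of -0.23. The riser, named after its value was seen, was Myb at 0.12. Tcf3, which encodes the E proteins E12 and E47, was not called, at 41.7 ± 0.616 and 41.8 ± 1.61 FPKM, and Ebf1 and Pax5, which commit cells to the B lineage, reached at most 0.0447 and 0.00764 FPKM.

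Around the cytokine receptors the changes went both ways, as they did over all genes tested. Of 15 ligands, receptor chains, kinases, STAT5 genes and STAT5 targets 14 were tested, 5 fell, 4 rose and 5 were not called (median -0.08). These counts stand beside 28.9% called lower and 25.8% called higher over all genes tested. Cish, a STAT5-induced inhibitor, fell from 6.73 ± 0.2096 to 3.77 ± 0.0292 FPKM, and Socs3, another inhibitor of cytokine signalling, from 31.7 ± 0.812 to 23.8 ± 0.6196 FPKM. Il2rg, the common gamma chain that pairs with the IL-7 receptor alpha chain, fell from 255.5 ± 6.79 to 216 ± 2.44 FPKM and so remained far above Il7r in both groups. Stat5a rose from 26.0 ± 0.960 to 31.1 ± 0.188 FPKM, and the survival gene Mcl1 from 25.7 ± 0.748 to 32.1 ± 1.02 FPKM.

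The factors that cut and join DNA together with RAG and TdT changed in both directions. Of 12 listed 9 were tested, 4 fell, 1 rose and 4 were not called (median -0.11), so the share called was near that of all genes. Nhej1 (also XLF) had a log2 fold change of -0.43, Xrcc6 (Ku70) of -0.17, Hmgb1, a cofactor of RAG cleavage, of -0.11 and the kinase gene Atm of -0.16. Prkdc, the catalytic subunit of DNA-dependent protein kinase, rose by 0.24. Lig4, the ligase that seals the breaks and singled out after its values were seen, was too low in 4 libraries to be tested: it stood at 0.334, 0.304 and 0.294 FPKM in controls and at 1.25, 1.15 and 0.705 FPKM in irradiated HSCs, so its groups did not overlap. In the MEF2 family and its regulators 7 of 9 were tested, 1 fell, 1 rose and 5 were not called (median 0.02), beside 54.7% called over all genes tested. Mef2a fell from 8.63 ± 0.336 to 6.61 ± 0.403 FPKM, Mef2d was not called at 16.5 ± 0.385 and 17.0 ± 0.414 FPKM, and the class IIa histone deacetylase genes Hdac4, Hdac5 and Hdac7 had values of 0.02, 0.01 and 0.02 that were not called. The kinase gene Mapk7 rose by 0.16 and was not called without control replicate 2 or 3 or irradiated replicate 2 or 3, and Mapk14 was not called (0.04).

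**Figure D4:**
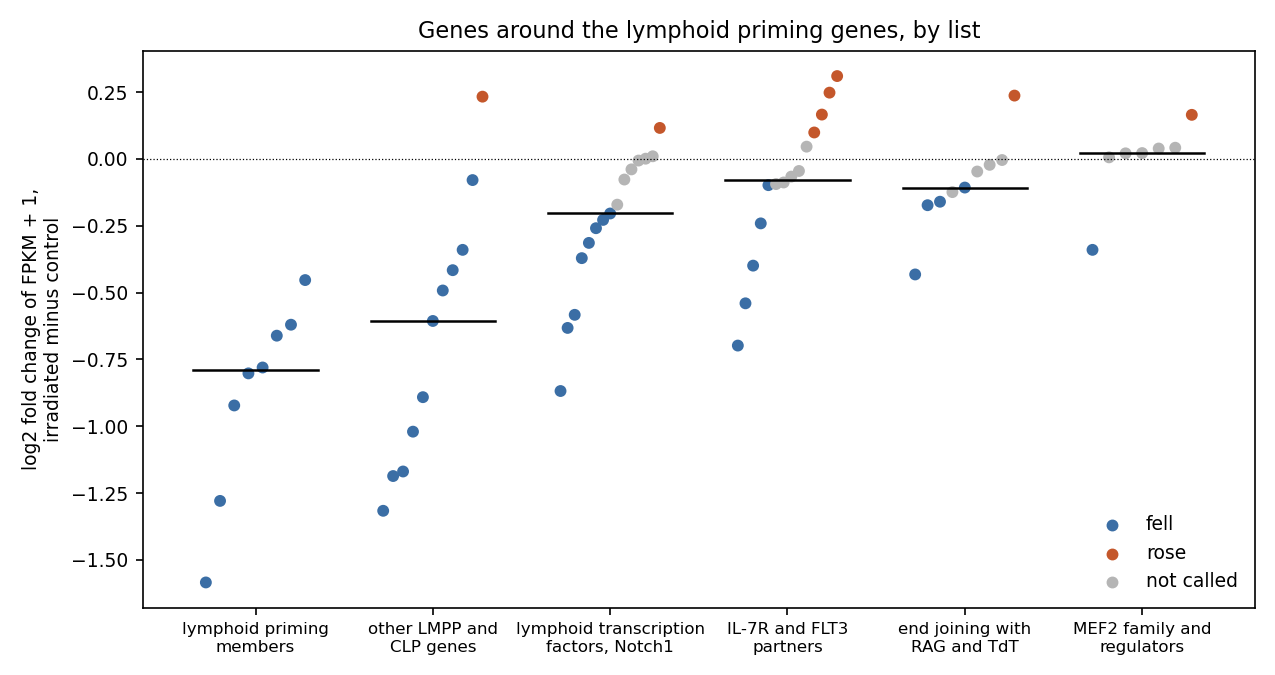
Log2 fold change on the log2(FPKM + 1) scale, irradiated minus control, of each tested gene in the members and 5 related lists; points are genes, coloured by call, and black bars are list medians. The medians run from -0.79 for the members and -0.61 for other LMPP and CLP genes to -0.20, -0.08, -0.11 and 0.02 for the other lists.

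Markers of other cells that a sorted sample could hold were detected in part, and several lists moved with the members. Their counts are given beside 28.9% called lower and 25.8% called higher over all genes tested. Of 10 B-lineage markers 6 stayed under 1 FPKM in all libraries, 2 of the 4 tested fell and 1 rose, and their summed level was 76.2 to 85.6 FPKM in controls and 59.4 to 60.6 FPKM in irradiated HSCs, most of it Cd79b. Of 5 plasmacytoid dendritic cell markers, 1 of them (Ccr9) also on the list of other lymphoid genes, both tested ones fell (Siglech, which passed the filter only through the controls, and Cox6a2), the sum went from 16.6 to 19.5 FPKM in controls to 5.94 to 6.42 FPKM in irradiated HSCs, and Klk1 was listed at 0 throughout. Of 8 T-cell markers 6 stayed under 1 FPKM in all libraries, with 2 of these listed at 0 throughout, and of the 2 tested Cd4 fell, after passing the filter only through the controls, and Lat was not called, with sums of 47.1 to 50.8 and 46.2 to 52.0 FPKM that were nearly all Lat. Neutrophil markers summed to 138 to 142 FPKM in controls and 102 to 103 FPKM in irradiated HSCs. Of 6 tested 5 fell (Ltf passed the filter only through the controls), while Lcn2 rose by 0.74 on the log2 scale. Monocyte markers summed to 240 to 243 and 216 to 228 FPKM, with 4 of 5 tested lower and 1 not called. NK-cell markers summed to 529.5 to 552 and 648 to 657 FPKM, mostly Nkg7, which rose, while the other 2 tested fell. The part of such cells in the members' values was not tested.

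Most markers of multipotent progenitors were lower as well, and those of the gate were mixed. The counts in this paragraph stand beside 28.9% called lower and 25.8% called higher over all genes tested. Of 5 progenitor markers, which include Flt3 itself, 4 fell and 1 rose, and their sum went from 1382 to 1396 FPKM in controls to 1120.0 to 1158 FPKM in irradiated HSCs. Of 5 genes of the gate, again with Flt3, 3 fell, 1 rose and 1 was not called. Kit was not called (log2 fold change -0.01), and Ly6a, which encodes Sca-1, fell by 0.37. Cd48, whose protein the gate excluded, fell: it stood at 396 to 403 FPKM in controls and 343 to 359 FPKM in irradiated HSCs, whereas Slamf1, which encodes the CD150 used for selection, rose and stood at 3.13 to 3.95 and 4.58 to 5.46 FPKM. In both groups Cd48 and Flt3, whose proteins the gate excluded, stood far above Slamf1, with Flt3 means of 125.4 and 65.7 FPKM. Of 9 HSC markers 8 were tested, and Fgd5 stayed under 1 FPKM in all libraries. Of the 8 tested, 3 fell, 1 rose (Hoxb5, which passed the filter only through the irradiated libraries) and 4 were not called. The share called was near the 54.7% of all genes tested. The HSC markers summed to 107 to 116 FPKM in controls and 102 to 106 FPKM in irradiated HSCs, mostly Pdzk1ip1 and Esam. Megakaryocyte and erythroid markers went the other way in part, with 5 of 6 and 3 of 5 tested higher and the others lower. Their sums were 151 to 154 against 183 to 199 FPKM and 55.7 to 61.6 against 78.2 to 84.3 FPKM. Whether the sorted cells of the groups differed in makeup was not tested.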

How the data were processed

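RNA-seq of sorted bone marrow HSCs was compared between 3 control and 3 irradiated libraries. The deposited values were taken as FPKM, 1 value per gene symbol; the column names no unit, which was read from the range of values and the tools fastp, HISAT2 and StringTie with build GRCm38 (mm10) in the submitters' processing notes. Per the labels' protocols, libraries were made with a stranded kit for polyadenylated RNA. The sources used here do not state versions, annotation or counting settings. Of 21878 entries, 27 named by a date were left out.

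Genes reaching 1 FPKM in 3 or more libraries entered the test, which compared log2(FPKM + 1) by limma 3.58.1 in R 4.3.3 (moderated by a mean-variance trend, 2-sided, no block, Benjamini-Hochberg threshold 0.05). The procedure was tested on simulated data with independent noise, in which only a small part of the genes changed. That setting differs from these data, where 54.7% were called, so the check does not bear on the calls made here. The members, lists and tests were chosen with earlier results of these data known. The text names all members, their neighbours, all tested genes of lists with up to 8 tested and otherwise the 5 with the smallest p, and the 5 genes nearest in profile to Dntt and to Flt3. Members and predicted genes (Gm and Rik names) were left out of the ranking by profile. Lists of cell type markers are given by counts and sums, and the single markers named were chosen after their values were seen. Some genes that these rules cover are not reported here. Depth was estimated from values in single-transcript genes (GENCODE M21): 24.6% to 25.7% of low values lay within 0.01 of a whole multiple of the best step, too few to recover reads. Positions and the upstream windows, found for 6 of 9 members, are from RefSeq (GRCm38.p6).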

Additional observations from a re-analysis of the deposited data

How the results depend on the processing

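The 14 alternatives were 0.1 or 5 FPKM added, no filter or one of 5 FPKM, median or quantile scaling, no mean-variance trend, a replicate block, and each library left out. Each of the 8 members tested in the main fit fell under every alternative that kept it. Over these 110 combinations of member and alternative the adjusted p was at most 4.89e-04 by limma. The filter of 5 FPKM left out Il7r and Rag2. Without a filter Rag1 was called too, giving 9 members. The median change of all genes stayed within -0.0091 and 0.0093. Of 140 list counts recomputed, 134 stayed within 1.5 times: the end joining risers became 2 without a filter and 0 with a filter of 5 FPKM, and the MEF2 risers ranged from 0 to 1 over the libraries left out. Differences between members, whose alternatives were chosen after seeing the data, reversed in these cases. With 0.1 FPKM added, Flt3 minus Rag2 was 0.36 and Lsp1 minus Il7r 0.43. With 5 FPKM added, Rag2 minus Cd52 was 0.46 and Il7r minus Mef2c 0.18. Rag2 minus Cd52 ranged from -0.074 to 0.041 over the libraries left out, above 0 without control replicate 3 or irradiated replicate 3. Same-numbered libraries did not deviate together (correlations 0.009, -0.031 and -0.049), so no pairing by replicate number was seen. Correlations over all genes cannot exclude a pairing that affects few genes. With the replicate block 8 members still fell, and 2840 genes fell and 2539 rose in all. Depth limits Rag1, which rests on about 5 or 6 fragments per control library.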

Other observations

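Some genes of the marker lists were singled out after their values were seen. Cd4, a co-receptor of helper T cells, fell from 1.41, 1.03 and 1.55 FPKM in controls to 0.229, 0.339 and 0.116 FPKM in irradiated HSCs, a log2 fold change of -0.92 (SE 0.10, limma adjusted p = 4.46e-05). It passed the filter on low values only through the controls, so this call is partly set by the filter. Ms4a1, which encodes CD20 of mature B cells, was at 0.53 ± 0.069 FPKM in controls and 0.010 ± 0.018 FPKM in irradiated HSCs. It lay under the filter and was not tested. Other markers on the same lists did not all follow. Of 4 B-lineage markers tested 2 fell, 1 rose (Cd79a, from 7.07 to 8.67 FPKM) and 1 was not called. Of 2 T-cell markers tested 1 fell, Cd4, and Lat was not called.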
